A study of Mus musculus with 4 samples.

Results

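The Slc25 family holds the carriers that move metabolites across the inner mitochondrial membrane, and all 38 genes whose symbol begins with Slc25a were taken from the 16442 genes of the deposited table, without regard to their values. GENCODE M21 annotates 47 protein-coding genes with such symbols, and the other 9 were not analysed here. Leukaemia stem cells, the cells of a leukaemia that can restart the disease, had been isolated from the bone marrow of C57BL/6 mice, and their poly(A) RNA was sequenced. Cells labelled Rreb1-KO (KO, n = 2 libraries) were compared with cells labelled WT (n = 2 libraries). Rreb1 encodes a zinc-finger transcription factor that binds RAS-responsive DNA elements. All 4 libraries came from leukaemic marrow, and the labels used here give no oncogene, driver of the deletion, age or number of mice behind a library. The genotype label of KO replicate 2 names Rreb2 and not Rreb1, and the extraction text names macrophages, so libraries were grouped by their titles.

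Most metabolites cross the inner membrane only through a protein, and Slc25 carriers are the largest group of proteins that do this. Most of them exchange a solute of the matrix for a solute of the intermembrane space, such as ATP for ADP, or malate for phosphate or 2-oxoglutarate. They thereby connect respiration, the citric acid cycle, fatty acid oxidation, haem and iron-sulphur cluster synthesis and amino acid metabolism to the cytosol. In leukaemic cells, which take up glutamine and oxidise fatty acids, this traffic feeds the mitochondrial enzymes that handle succinate, the subject of the series.

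Depth was 16590857 to 18451274 assigned reads per library. Levels are in FPKM, read fragments divided by the length of a gene's exons and by the depth of the library. That length joins the exons of all annotated transcripts of a gene, whether or not these cells use them. Ranks and ratios between genes therefore depend on the annotated lengths, while comparisons of a gene between libraries do not. The targeted gene Rreb1 stood at 6.10 and 6.93 FPKM in the KO libraries, against 5.24 and 6.57 FPKM in the WT libraries, and the groups overlapped (log2 difference 0.13, limma adjusted p = 0.616). That value covers all exons and does not check the deletion, so KO and WT stand for the labels. The progenitor genes Hoxa9 and Meis1 were present in every library, at 31.8 to 35.8 and 11.5 to 11.9 FPKM in KO and 28.9 to 30.4 and 10.8 to 11.5 FPKM in WT. Of the 11 stem and progenitor genes tested, limma called 1 higher in KO, Cd33 (log2 fold change 0.80, adjusted p = 0.020), and 0 lower. It called 0.603% of all genes tested higher and 0.408% lower. By limma-voom 3 of the 11 were higher (Cd33, Kit and Itgam) and 2 lower (Cd34 and Flt3), so the list did not differ in a single direction. Limma-voom called 4.37% of all genes it tested higher and 2.92% lower. Markers of other cells differed between the groups. The summed level of 4 globin genes was 417 and 509 FPKM in KO, against 88.7 and 81.5 FPKM in WT, while that of 11 other erythroid genes was 14.3 and 16.3 FPKM in KO, against 33.8 and 18.9 FPKM in WT. That of 16 neutrophil genes was 3743 to 4413 FPKM in KO and 1795 to 1885 FPKM in WT, and that of 12 macrophage genes was 505 to 528 FPKM in KO and 659 to 697 FPKM in WT. In KO the largest neutrophil parts were S100a8 (1173 and 1506 FPKM) and S100a9 (632 and 905 FPKM). Limma called 10 of the 16 neutrophil genes higher in KO and 0 lower (0.603% and 0.408% of all genes). Log2 fold changes were below 0 for 4 of them, Ltf (−0.05), Mmp8 (−0.04), Cxcr2 (−0.11) and Chil3 (−0.19). Other lists differed as well. Of 5 B cell genes tested, limma called 0 higher and 3 lower in KO. Of 7 mast cell, basophil and eosinophil genes tested it called 1 higher and 2 lower, and of 6 T and NK cell genes 0 either way. In bulk RNA fewer cells of a type and less RNA per cell cannot be told apart.

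No Slc25a gene passed the test between KO and WT. Of the 38 genes, 33 had a mean of at least 1 FPKM and were tested, and 0 were higher and 0 lower in KO (limma, adjusted p below 0.05), where 1.01% of the 11768 genes tested were called. At an unadjusted p below 0.05, 2 members were higher and 3 were lower in KO, 15.2% of the tested members against 20.7% of all genes tested (11.4% higher and 9.35% lower). The members higher in KO were both mitoferrins, Slc25a37 and Slc25a28, which carry iron. The members lower in KO were the phosphate carrier Slc25a3, the ADP/ATP carrier Slc25a4 and the 2-oxoglutarate carrier Slc25a11. A test on recovered whole reads, limma-voom, called Slc25a37 and Slc25a28 higher and Slc25a3 lower, each with an adjusted p close to the threshold (0.043, 0.043 and 0.047). It called 3 of 33 members, 9.09%, where 7.28% of all 11384 genes it tested were called (4.37% higher and 2.92% lower). With 2 libraries against 2, the smallest two-sided p of a permutation test is 0.333, and every p given here depends on the variance that limma pools over genes.

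The median log2 fold change of the 33 tested members was −0.06, and that of all genes tested was 0.03. The quartiles were −0.18 and 0.05 for the members, and −0.13 and 0.19 for all genes. A log2 fold change below 0 was found for 20 of 33 members, 60.6%, against 46% of all genes tested. Both KO libraries lay above both WT libraries for 4 members, 12.1%, against 30.5% of all genes. The KO libraries were the lower pair for 11 members, 33.3%, against 24.9% of all genes. The groups were thus separate in 15 members, 45.5%, against 55.3% of all genes. Only Slc25a28 had a log2 fold change of over 0.5 in size.

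**Figure D1:**
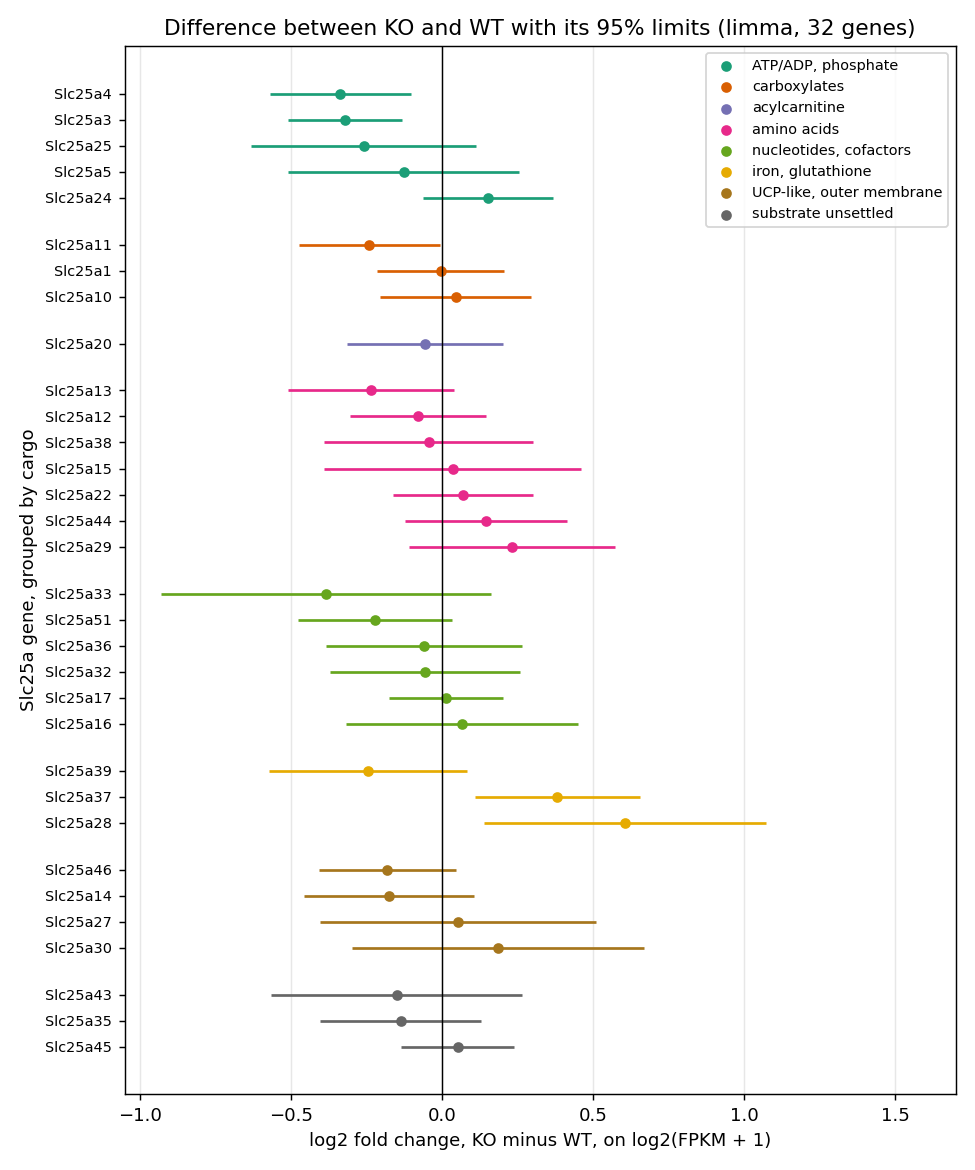
Log2 fold change (KO minus WT, on log2(FPKM + 1), x axis) of 32 of the 33 tested Slc25a genes (y axis), grouped by cargo, with points for the limma estimate and lines for its 95% interval. The intervals of 5 genes do not contain 0, Slc25a4, Slc25a3 and Slc25a11 on the lower side and Slc25a37 and Slc25a28 on the higher side, and no gene passed the adjusted threshold.

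The family's transcripts were dominated by the ADP/ATP carrier gene Slc25a5, also called Ant2, the adenine nucleotide translocator of proliferating cells, which exports ATP from the matrix in exchange for ADP. It made up 54.5% and 54.7% of the summed Slc25a FPKM in the KO libraries, against 57.5% and 51.2% in the WT libraries. The sum itself was 1384 and 1287 FPKM in KO, against 1576 and 1366 FPKM in WT, so the groups overlapped. Without Slc25a5, the sum was 629 and 583 FPKM in KO, against 670.4 and 667 FPKM in WT, and here the KO libraries were the lower pair. The 38 genes together took 0.348% and 0.326% of assigned reads in KO, against 0.386% and 0.352% in WT. The 5 highest members of each library held 76.9% and 75.1% of the sum in KO and 79.2% and 76.1% in WT. Slc25a5, Slc25a4, Slc25a39 and Slc25a11 were among them in every library, joined by Slc25a1 in KO and by Slc25a3 in WT. This order depends on annotated length, 5550 exonic bases for Slc25a3 and 2164 for Slc25a1. By reads Slc25a3 was above Slc25a1 in KO too, at 4716 and 4406 reads against 2178 and 1818. In every library 9 members were above 20 FPKM. The median member was at 7.61 and 7.83 FPKM in KO, against 8.04 and 8.28 FPKM in WT.

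**Figure D2:**
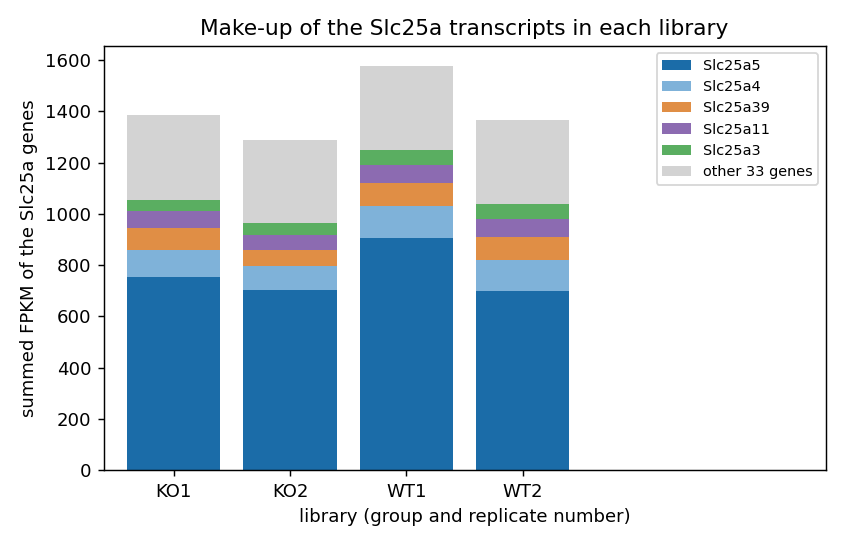
Summed FPKM (y axis) of the Slc25a genes in each library (x axis, group and replicate number). Coloured parts are the 5 genes highest by mean over all libraries (Slc25a5, Slc25a4, Slc25a39, Slc25a11 and Slc25a3), and grey is the other 33. Slc25a5 fills 51.2% to 57.5% of each bar.

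**Figure D3:**
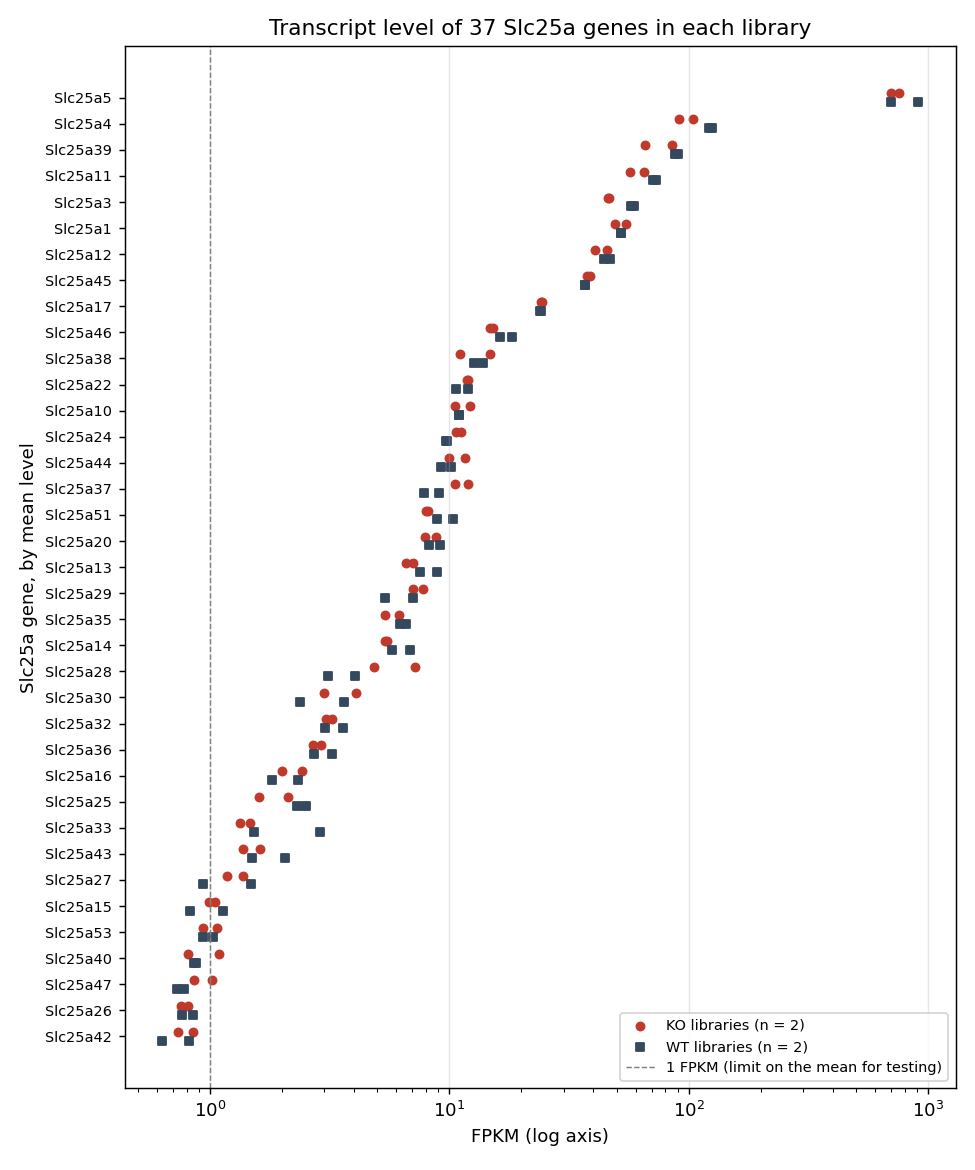
FPKM (log axis) of 37 of the 38 Slc25a genes (rows, by mean level) in the 2 KO libraries (circles) and the 2 WT libraries (squares), with a dashed line at 1 FPKM, the limit on the mean for testing. Levels run from 0.633 FPKM for Slc25a42 in WT replicate 1 to 906 FPKM for Slc25a5 in WT replicate 1.

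Promoter letters are shown for the members with an unadjusted p below 0.05 that RefSeq's GRCm38.p6 table holds, so that their upstream sequence can be read beside their values. Each line gives 180 bases before the annotated start and 30 after it, 5′ to 3′ on the strand of the gene (the minus strand for all 4). Capitals mark the CCAAT box, searched as CCAAT on both strands.
Slc25a3: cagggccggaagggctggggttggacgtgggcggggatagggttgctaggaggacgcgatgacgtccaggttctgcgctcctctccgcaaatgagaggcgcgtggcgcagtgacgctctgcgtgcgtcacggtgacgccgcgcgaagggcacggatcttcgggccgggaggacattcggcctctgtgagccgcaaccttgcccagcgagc
Slc25a4: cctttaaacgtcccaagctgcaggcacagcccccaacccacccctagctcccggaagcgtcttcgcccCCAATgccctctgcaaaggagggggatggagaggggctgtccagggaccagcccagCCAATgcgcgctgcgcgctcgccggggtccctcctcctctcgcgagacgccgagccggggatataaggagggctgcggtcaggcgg
Slc25a11: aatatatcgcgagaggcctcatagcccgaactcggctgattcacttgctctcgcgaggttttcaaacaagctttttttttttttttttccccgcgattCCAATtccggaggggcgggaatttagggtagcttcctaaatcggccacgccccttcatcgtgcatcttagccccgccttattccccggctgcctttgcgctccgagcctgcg
Slc25a28: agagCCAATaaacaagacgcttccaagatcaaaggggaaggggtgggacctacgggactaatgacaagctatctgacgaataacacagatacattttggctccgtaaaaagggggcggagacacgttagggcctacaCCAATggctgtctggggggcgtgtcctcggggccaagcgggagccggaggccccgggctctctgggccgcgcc

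These stretches are chr10:91123938-91124147, chr8:46211033-46211242, chr11:70647010-70647219 and chr19:43674852-43675061. Promoters of 300 bases were found for 29 of the 38 members, and 16 of the 29 held CCAAT in at least 1 promoter, 55.2%, against 41.1% of all 27025 genes. The E-box CACGTG, the core that MYC binds, was in 6 of the 29 (20.7%, against 8.09% of all genes), and these were Slc25a1, Slc25a13, Slc25a14, Slc25a15, Slc25a33 and Slc25a36. The YY1 letters AAGATGGCG were in Slc25a3 alone (3.45%, against 1.64%), after the annotated start and outside the printed stretch. The letters TGCGCATGC of NRF1 (1.72% of all genes), TCAAGGTCA of the oestrogen-related receptors (0.466%) and CAAACCACC from the RREB1 consensus (0.389%) were in 0 of the 29. The motifs searched do not overlap each other in these 4 promoters.

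Adenine nucleotide and phosphate carriers supply the ATP synthase with ADP and phosphate. All 5 such members in the table were tested, 0 passed, 4 had a log2 fold change below 0, and their median was −0.26. Slc25a4 (Ant1, chromosome 8, 46206797 to 46211284), the isoform typical of heart and muscle, was at 104 and 91.2 FPKM in KO, against 125 and 122 FPKM in WT. Both KO libraries were below both WT libraries. The log2 fold change was −0.34 (SE 0.096, 95% interval −0.57 to −0.10, limma adjusted p = 0.157). Slc25a3 (chromosome 10, 91116574 to 91124059), which brings phosphate and also copper into the matrix, was at 46.1 and 46.6 FPKM in KO, against 57.2 and 59.2 FPKM in WT. The KO libraries lay close together and below both WT libraries, with a log2 fold change of −0.32 (SE 0.077, 95% interval −0.51 to −0.13, limma adjusted p = 0.118). This was the smallest p of the family, and by limma-voom Slc25a3 was lower in KO (log2 fold change −0.33, adjusted p = 0.047).

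Slc25a5 (chromosome X, 36795651 to 36798807) was at 755 and 704 FPKM in KO, against 906 and 699 FPKM in WT. The groups overlapped, since the WT replicates were farther apart than the group means, and the log2 fold change of −0.13 (95% interval −0.51 to 0.26, limma adjusted p = 0.673) became 0.06 without WT replicate 1. Of the 50-base words of Slc25a5 transcripts, 33.8% recur in transcripts of 9 other annotated genes, while 0% of those of Slc25a4 recur elsewhere. How such reads were assigned is not given in the sources used here, so the level of Slc25a5 is uncertain. The ratio of Slc25a5 to Slc25a4 was 7.26 and 7.71 in KO, against 7.26 and 5.74 in WT. The calcium-regulated ATP-Mg/phosphate carriers differed in level. Slc25a24 was at 10.7 and 11.2 FPKM in KO, against 9.70 and 9.77 FPKM in WT (log2 fold change 0.15, limma adjusted p = 0.368), with both KO libraries above both WT libraries. Slc25a25 was at 2.12 and 1.60 FPKM in KO, against 2.31 and 2.51 FPKM in WT, with both KO libraries below both WT libraries.

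Carriers of di- and tricarboxylates exchange intermediates of the citric acid cycle, among them succinate, which the dicarboxylate carrier Slc25a10 trades for phosphate. Of the 3 members tested 0 passed, and their median log2 fold change was −0.004. Slc25a10 was at 12.3 and 10.6 FPKM in KO, against 10.9 and 11.0 FPKM in WT. The KO libraries lay on either side of the WT libraries, with a log2 fold change of 0.05 (95% interval −0.20 to 0.30, limma adjusted p = 0.824). Slc25a1, which exports citrate for lipid synthesis, was at 54.6 and 49.3 FPKM in KO, against 52.2 and 51.9 FPKM in WT, and the limits of its log2 fold change were −0.22 to 0.21 (limma adjusted p = 0.982). Slc25a11 (chromosome 11, 70644196 to 70647479), which trades 2-oxoglutarate for malate in the malate-aspartate shuttle, was at 65.2 and 56.7 FPKM in KO, against 71.0 and 73.0 FPKM in WT. Both KO libraries were below both WT libraries. The log2 fold change was −0.24 (SE 0.096, 95% interval −0.47 to −0.006, limma adjusted p = 0.235). Of its exonic bases 8.92% overlap exons of Rnf167 on the other strand, a gene at a mean of 48.6 FPKM, and the library kit as described does not mark the strand. The carnitine-acylcarnitine carrier Slc25a20, which imports fatty acyl groups for oxidation, was at 8.80 and 7.88 FPKM in KO, against 8.23 and 9.17 FPKM in WT, with a log2 fold change of −0.06 (95% interval −0.31 to 0.20, limma adjusted p = 0.789).

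Of the amino acid carriers 7 were tested and 0 passed, with a median log2 fold change of 0.04. The aspartate-glutamate carriers are the other arm of the malate-aspartate shuttle. Slc25a12 (aralar), the isoform of brain and muscle, was at 45.6 and 40.7 FPKM in KO, against 46.9 and 44.1 FPKM in WT. Slc25a13 (citrin), the isoform of liver, was at 6.58 and 7.03 FPKM in KO, against 8.88 and 7.52 FPKM in WT. The aralar gene was therefore higher than the citrin gene in each library, by ratios of 6.94 and 5.78 in KO, against 5.29 and 5.87 in WT. Their log2 fold changes were −0.08 and −0.23 (limma adjusted p = 0.660 and 0.292), and the libraries of Slc25a13 did not overlap. The glutamate carrier Slc25a22 was at 11.8 and 11.9 FPKM in KO, against 11.9 and 10.7 FPKM in WT. Slc25a38, which brings glycine in for haem synthesis, was at 11.1 and 14.8 FPKM in KO, against 13.9 and 12.7 FPKM in WT. Its KO libraries enclosed both WT libraries, and the log2 fold change was −0.04 (95% interval −0.39 to 0.30, limma adjusted p = 0.880). The branched-chain amino acid carrier Slc25a44 and the basic amino acid carrier Slc25a29 had log2 fold changes of 0.15 and 0.23 with overlapping libraries, and the ornithine carrier Slc25a15 stood near 1 FPKM in all libraries.

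The mitoferrins, which import iron for haem and iron-sulphur clusters, were the members highest in KO relative to WT. Slc25a37 (mitoferrin 1, chromosome 14, 69241848 to 69285112), the carrier of erythroid precursors, was at 10.6 and 12.0 FPKM in KO, against 7.84 and 9.04 FPKM in WT. These values rest on 1176 and 1229 reads in KO and 871 and 903 reads in WT, and 7.86% of the exonic bases overlap genes annotated on the other strand. Both KO libraries were above both WT libraries, with a log2 fold change of 0.38 (SE 0.11, 95% interval 0.11 to 0.65, limma adjusted p = 0.159; 0.42 with an adjusted p = 0.043 by limma-voom). Slc25a28 (mitoferrin 2, chromosome 19, 43663801 to 43674881), the form found in most tissues, was at 4.87 and 7.20 FPKM in KO, against 3.12 and 4.04 FPKM in WT. The groups did not overlap, but the KO replicates were nearly as far apart as the group means. The log2 fold change was 0.61 (SE 0.19, 95% interval 0.14 to 1.07, limma adjusted p = 0.176; 0.74 with an adjusted p = 0.043 by limma-voom). With a library left out, the limma value ran from 0.36 without KO replicate 2 to 0.85 without KO replicate 1. Summed, the mitoferrins were at 15.5 and 19.2 FPKM in KO, against 11.0 and 13.1 FPKM in WT.

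Erythroid markers differed between the groups too, and not in a single direction. Of 17 listed genes 15 were in the table and 10 were tested, of which 5 were higher in KO and 0 lower (0.603% and 0.408% of all genes were called). The 5 were the globin genes Hba-a1, Hba-a2, Hbb-bs and Hbb-bt and the haem synthesis gene Alas2, with Alas2 at 3.46 and 3.81 FPKM in KO, against 0.722 and 0.727 FPKM in WT. By limma-voom 5 were higher and 2 lower, the carbonic anhydrase genes Car1 and Car2. Car1 was at 0.348 and 0.611 FPKM in KO, against 13.9 and 4.88 FPKM in WT (log2 fold change −2.67, limma adjusted p = 0.053, limma-voom adjusted p = 0.0049), and Car2 had a log2 fold change of −1.46 (limma adjusted p = 0.086, limma-voom adjusted p = 0.0045). The erythroid regulators Klf1 and Gata1 also had a negative sign, with Klf1 at 0.495 and 0.536 FPKM in KO, against 2.23 and 0.943 FPKM in WT (limma adjusted p = 0.207). Gata1 was at 0.713 and 0.891 FPKM in KO, against 2.40 and 1.21 FPKM in WT (limma adjusted p = 0.227). No erythroid marker in the table was at 0 in all libraries, Ermap was listed at 0 in KO replicate 1, and the transferrin receptor gene Tfrc, which takes iron into the cell, was at 7.72 and 8.21 FPKM in KO, against 5.15 and 6.72 FPKM in WT. The part of these cells, and of the neutrophil markers, in the mitoferrin levels was not tested.

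Slc25a39 and Slc25a40 import glutathione, the main thiol antioxidant of the matrix. Slc25a39 was at 85.6 and 65.4 FPKM in KO, against 90.1 and 87.5 FPKM in WT, and its paralog Slc25a40 was at 0.809 and 1.09 FPKM in KO, against 0.860 and 0.877 FPKM in WT. The FPKM of Slc25a39 was thus 106 and 59.9 times that of Slc25a40 in KO, against 105 and 99.8 times in WT. Part of this ratio comes from the annotated lengths, 2756 exonic bases for Slc25a39 and 8386 for Slc25a40. In reads, Slc25a39 had 4345 and 3072 in KO and 4584 and 4002 in WT. Slc25a40 had 125 and 156 reads in KO and 133 and 122 in WT. The KO libraries of Slc25a39 were the lower pair, mostly through KO replicate 2, and the log2 fold change of −0.24 (95% interval −0.57 to 0.08, limma adjusted p = 0.347) was −0.05 without that library.

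**Figure D4:**
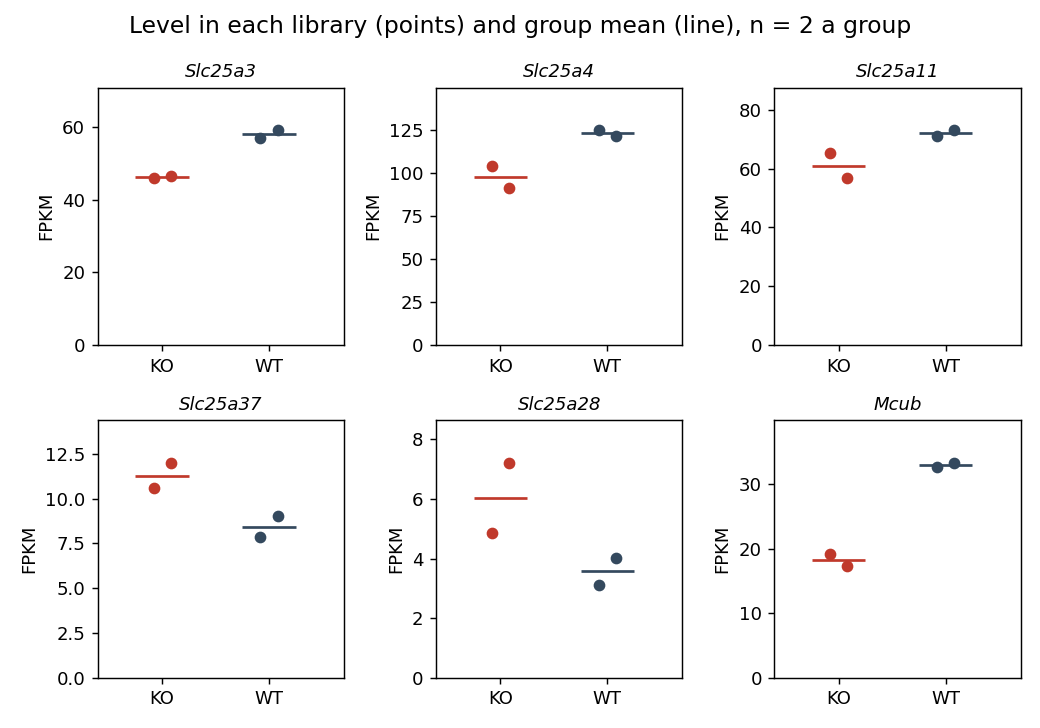
FPKM (y axis, from 0) in each KO and WT library (points, n = 2 a group) with the group mean (line) for the 5 Slc25a genes with an unadjusted p below 0.05 and for Mcub. The groups do not overlap in any of the 6 panels, and Mcub, at 19.1 and 17.3 FPKM in KO and 32.6 and 33.2 FPKM in WT, has the largest log2 fold change in size, −0.82.

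Carriers of nucleotides, cofactors and vitamins numbered 9, of which 7 were tested and 0 passed, with a median log2 fold change of −0.06. The peroxisomal carrier Slc25a17 was nearly level, at 24.5 and 24.1 FPKM in KO, against 23.9 and 24.2 FPKM in WT. Slc25a51, which imports NAD+, was at 8.18 and 8.01 FPKM in KO, against 8.92 and 10.3 FPKM in WT, a log2 fold change of −0.22 (95% interval −0.48 to 0.03, limma adjusted p = 0.284), and the groups did not overlap. The pyrimidine nucleotide carrier Slc25a33 was at 1.47 and 1.34 FPKM in KO, against 2.87 and 1.53 FPKM in WT, from 51 and 43 reads in KO and 100 and 48 reads in WT, and 14.9% of its exonic bases overlap a gene on the other strand. The value of WT replicate 1 stood apart, and the log2 fold change of −0.38 (limma adjusted p = 0.370) was −0.08 without it. Its paralog Slc25a36 was at 2.91 and 2.70 FPKM in KO, against 2.71 and 3.25 FPKM in WT (log2 fold change −0.06, limma adjusted p = 0.820). The folate carrier Slc25a32 had overlapping groups, at a mean of 3.14 FPKM in KO and 3.31 FPKM in WT. The S-adenosylmethionine carrier Slc25a26 and the coenzyme A carrier Slc25a42 stayed below 1 FPKM in all libraries.

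Slc25a46, an outer membrane protein that shapes the mitochondrial network, was at 15.3 and 14.8 FPKM in KO, against 16.2 and 18.2 FPKM in WT, with groups that did not overlap (log2 fold change −0.18, 95% interval −0.41 to 0.05, limma adjusted p = 0.319). The members related to uncoupling proteins, Slc25a14, Slc25a27 and Slc25a30, had log2 fold changes of −0.18, 0.05 and 0.19. Among members whose substrate is unsettled, Slc25a45 was high, at 38.9 and 37.7 FPKM in KO, against 36.8 and 37.0 FPKM in WT, the eighth level of the family, with a log2 fold change of 0.05 (95% interval −0.14 to 0.24, limma adjusted p = 0.729). Slc25a35 was at 5.37 and 6.16 FPKM in KO, against 6.25 and 6.61 FPKM in WT, and 31.3% of its exonic bases overlap exons of Rangrf on the other strand. The 5 members not tested, Slc25a53, Slc25a40, Slc25a47, Slc25a26 and Slc25a42, lay between 0.633 and 1.09 FPKM in all libraries, on 36 to 156 reads each.

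Carriers of the same fold that have other symbols were set beside the family. Ucp2, an uncoupling protein that exports dicarboxylates, was at 111 and 112 FPKM in KO, against 122 and 131 FPKM in WT, with groups that did not overlap (log2 fold change −0.18, 95% interval −0.39 to 0.03, limma adjusted p = 0.284). The outer membrane proteins Mtch1 and Mtch2 had log2 fold changes of 0.13 and −0.10 (limma adjusted p = 0.545 and 0.509). Of 29 other mitochondrial transporters and channels tested, 0 were higher and 1 was lower in KO (limma), where 0.408% of all genes were called lower. Their median log2 fold change was −0.10, against 0.03 for all genes. Limma-voom called 0 higher and 2 lower, where it called 2.92% of all genes lower, and these were Mcub and Letm1, a cation exchanger named with its values in view. The gene called by limma was Mcub, the inhibitory paralog of the calcium uniporter pore, at 19.1 and 17.3 FPKM in KO, against 32.6 and 33.2 FPKM in WT. Its log2 fold change was −0.82 (SE 0.087, 95% interval −1.04 to −0.61, limma adjusted p = 0.021). The call ended without the filter on level (adjusted p = 0.054) and without KO replicate 2, WT replicate 1 or WT replicate 2 (adjusted p = 0.102, 0.148 and 0.113), while the log2 fold change stayed at −0.82 without the filter and at −0.75, −0.84 and −0.81 without those libraries. The pore gene Mcu, picked with its values in view, stood at 9.14 and 8.95 FPKM in KO, against 7.02 and 7.30 FPKM in WT (log2 fold change 0.30, limma adjusted p = 0.168).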

How the data were processed

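Poly(A) RNA of leukaemia stem cells was sequenced in 2 KO and 2 WT libraries. The submitters' processing notes list the GRCm38 build and, without roles, CASAVA, featureCounts, DESeq2 and HISAT2 2.1.0. The authors deposited a table of 16442 genes whose unit is not named, and its values behave as FPKM made by the authors with 1 added (lowest value 1). That 1 was subtracted. Whole reads were recovered from FPKM and GENCODE M21 exon lengths for 15798 genes, within a tolerance of 0.05 reads for low values. A count of 3 reads over 2 kb of exon equals 0.0813 to 0.0904 FPKM, a floor for counting error alone.

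Differences (KO minus WT) were fitted on log2(FPKM + 1) by limma-trend (limma 3.58.1, R 4.3.3) with group as the sole term. The 11768 genes averaging 1 FPKM or more entered, and two-sided p-values were Benjamini-Hochberg adjusted over all of them at 0.05. Fold changes on this scale understate those of low genes. The procedure was also run on simulated reads, with an outcome that is not reported here, and no statement in the text rests on that run. Alternatives were a pseudocount of 0.1, no filter, equal library medians, limma-voom on recovered reads, the replicate number as a block, and each library left out.

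Members and lists were chosen with earlier results of these data known. The members named with test values were those called, the 10 of smallest p, the 5 highest, and a preset group. The preset group held related pairs and the single genes Slc25a1, Slc25a10, Slc25a11, Slc25a20, Slc25a3 and Slc25a38. Further members were added for their cargo, with their values in view. Among other transporters, called genes were named. The values of 1 member are counted in the summaries and not reported here. Replicates of a genotype are biological per the labels, but mice or pools are not stated, so p-values measure the spread between these libraries, and the 2 libraries of a group differed by more than sampling noise (chi-square per gene 14.6 in KO and 12.3 in WT). Sequences are RefSeq's, build GRCm38.p6.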

Additional observations from a re-analysis of the deposited data

How the results depend on the processing

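Of the 22 genes named with their alternatives, 11 kept direction and call throughout, 4 kept direction and changed call (Slc25a3, Slc25a28 and Slc25a37, called by limma-voom, and Mcub), and 7 changed sign with a library left out. Their log2 fold changes then ran from −0.31 to 0.060 (Slc25a5), −0.077 to 0.068 (Slc25a1), −0.16 to 0.0033 (Slc25a12), −0.24 to 0.15 (Slc25a38), −0.054 to 0.15 (Slc25a10), −0.13 to 0.016 (Slc25a20) and −0.16 to 0.037 (Slc25a36). Slc25a genes called were 0 higher and 0 lower in all alternatives but limma-voom (2 and 1). Their median log2 fold change was −0.056, −0.091 with equal library medians (all genes −0.010), and −0.074 to −0.026 with a library left out. Over all genes, 71 were higher and 48 lower, against 22 and 10 without the filter, 45 and 28 with equal medians, 497 and 332 by limma-voom and 40 and 26 with the replicate block. With a library left out they ran from 0 to 54 and from 0 to 15, lowest without WT replicate 1. These fits had fewer samples, and the lone library of a group was assumed to vary like the others. Deviations of same-numbered libraries correlated at 0.009 across genes, so the numbers were not treated as pairs. For the other changes the cause was not tested. Depth limits the members below 2 FPKM most, at 36 to 156 reads a library.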
